A study of Caenorhabditis elegans with 2 samples.

Results

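Genes for translation factors and aminoacyl-tRNA synthetases were examined in a chromatin immunoprecipitation and sequencing (ChIP-seq) profile of CEH-90, a homeobox protein of Caenorhabditis elegans. The set comprised the protein-coding genes whose symbol begins eif-, eef- or ife-, or is 1 letter followed by ars- and a digit, in the Ensembl models of WBcel235, the assembly of build ce11. It held 68 of 19973 protein-coding genes, namely 25 eif- genes, 6 eef- genes, 5 ife- genes and 32 synthetase genes. The worms were hermaphrodite L1 larvae of strain OP210, genotype unc-119(ed3) III; wgIs210, in which CEH-90 carries a C-terminal GFP-FLAG tag as an integrated transgene, taken 6 hours after they had been synchronized by starvation at L1. An anti-GFP antibody was used on 2 biological replicates of whole animals, so the tissues behind a peak cannot be told apart. The replicates form 1 group with no second condition. The labels do not say which promoter drives the fusion, and no immunoprecipitation without it was analysed here.

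Translation starts when initiation factors bring the initiator tRNA and the small ribosomal subunit to an mRNA, and it proceeds as elongation factors deliver charged tRNAs and move the ribosome along. Aminoacyl-tRNA synthetases charge each tRNA with its amino acid, in separate cytosolic and mitochondrial forms for many amino acids. Translation goes on in every cell, and growing larvae must build their own ribosomes and proteins once they feed. Expression of the genes of the set was not measured here.

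A gene is said here to have a site when the summit of a peak in the submitters' optimal list after an irreproducible discovery rate threshold (the IDR list, 765 peaks) lies from 1000 bp upstream to 200 bp downstream of one of its annotated transcript starts. Ranks are by the submitters' signal per peak, whose scaling is not stated, and the IDR list is the 765 strongest of the 30000 peaks of the list pooled over both replicates. Sites were found at 19 of the 68 genes, or 27.9% (exact Clopper-Pearson 95% interval 17.7 to 40.2%), against 4.46% of all protein-coding genes. The interval covers counting error over genes only. Read depth was unknown, because the lists hold no counts. Factor genes (eif-, eef- and ife-) had a site at 12 of 36, or 33.3% (18.6 to 51.0%), and synthetase genes at 7 of 32, or 21.9% (9.28 to 39.97%). With each summit given to its nearest start alone, these counts were 7 factor and 6 synthetase genes. For scale, cytosolic ribosomal protein genes had a site at 32 of 81 (39.5%) and proteasome subunit genes at 6 of 33 (18.2%). No test was made between these lists.

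Sequences at 7 of the 19 summits are shown as examples of sites with and without the 6-mers described next, and were chosen with that in view. Of these 7, 5 hold one, against 7 of the 19 over all sites. The stronger sites of eif-4A3 (with several of the 6-mers) and eif-3.C (with none) are not shown, and the stronger site of ears-2, with none of the 6-mers, was passed over for that of aars-1, with several. Each is given 5′ to 3′ on the strand of the named gene from the RefSeq copy of WBcel235, within 50 bp of the summit and outside annotated exons. For eif-1 and aars-1, whose summits lie against or inside annotated exons, only 29 bases around the match are given. Capitals mark any of 5 6-mers on either strand: the letters GGCCAC, the letters GGCCTA, the letters CGGCCA, the letters CTAGGC and the letters ACGCGC. These were picked as frequent at IDR summits in these same data, so that their presence is a description. Some overlap, since CTAGGCC holds both GGCCTA (on the other strand) and CTAGGC, while CGGCCAC holds both GGCCAC and also CGGCCA.
eif-3.B, chrII:14795113-14795213, plus strand: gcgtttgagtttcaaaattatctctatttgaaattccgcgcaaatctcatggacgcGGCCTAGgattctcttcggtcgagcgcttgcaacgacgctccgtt
yars-2, chrIV:4712625-4712704, minus strand: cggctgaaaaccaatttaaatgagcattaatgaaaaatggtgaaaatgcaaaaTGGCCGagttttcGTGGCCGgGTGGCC
eif-1, chrII:4993992-4994020, minus strand: aatggagttttCTAGGCCatggactagga
aars-1, chrII:11464103-11464131, minus strand: CTAGGCCatGGCCTAacatgttCTAGGCC
eef-1A.2, chrX:7823234-7823334, plus strand: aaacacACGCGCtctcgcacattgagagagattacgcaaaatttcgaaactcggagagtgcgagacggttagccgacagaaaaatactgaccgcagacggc
eef-1A.1, chrIII:6972086-6972161, minus strand: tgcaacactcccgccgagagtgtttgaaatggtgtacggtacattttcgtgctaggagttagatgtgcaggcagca
kars-1, chrII:7072723-7072823, minus strand: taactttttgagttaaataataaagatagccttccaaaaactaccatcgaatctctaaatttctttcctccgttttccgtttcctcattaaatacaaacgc

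At eif-3.B, the strongest site of the set, 1 block of these letters began 6 bases from the summit. At yars-2 and at aars-1 there were 3 separate blocks each. At kars-1 and at eef-1A.1 none was found within 50 bp of the summit. Over all 19 sites, 7 held at least 1 of the 6-mers within 50 bp of the summit (36.8%), and 307 of all 765 IDR peaks did (40.1%). The comparison depends on the width. Within 25 bp the shares were 31.6% of the 19 sites and 29.8% of all IDR peaks, but within 100 bp they were 14 of 19 (73.7%) and 375 of 765 (49.0%), with 12.9% of the other pooled-list peaks. At that width ACGCGC was at 9 of the 19 sites (47.4%) and at 19.1% of all IDR peaks, and no test was made of the difference. Within 50 bp again, 1 of the 36 best summits at genes of the set without a site held one (2.78%), beside 2108 of the 29008 other pooled-list peaks, those overlapping no IDR peak (7.27%). The 7 sites were those of eif-3.B, eif-4A3, yars-2, eif-1, eef-1A.2, aars-1 and eif-3.D. They made up 5 of the 8 sites among the 382 strongest IDR peaks (62.5%) and 2 of the 11 among the 383 others (18.2%), and all IDR peaks ran the same way, with 55.5% and 24.8%. Median GC content within 50 bp of the summit was 42.6% at the 19 sites, 44.6% at all IDR peaks and 32.7% at the other pooled-list peaks. In annotated promoters, from 250 bp before to 50 bp after a start, at least 1 of the 5 6-mers was present at 20 of the 68 genes (29.4%) and at 18.4% of all protein-coding genes. Taken singly, GGCCTA was in 6 and CTAGGC in 3 of the 68 promoters (8.82% and 4.41%, against 4.40% and 4.58% of all promoters), and ACGCGC in 12 (17.6%, against 5.92%). GGCCAC was in 2 and CGGCCA in 1 (2.94% and 1.47%, against 4.72% and 5.00%).

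Initiation factor genes are here all those named eif-, eif-4A3 included, and 9 of 25 had a site (36.0%), beside 4.46% of all protein-coding genes. The highest was eif-3.B, which encodes a scaffold subunit of eIF3, the complex that holds the small ribosomal subunit ready for mRNA. Its peak on chromosome II, at 14794981 to 14795315, ranked 18 of 765 with a signal of 1144, and its summit lay 241 bp upstream of the start with no other protein-coding start in the window. In the replicates the peak had a signal of 627 and rank 14 in replicate 1, and of 521 and rank 22 in replicate 2. It was the only site of the set among the 100 strongest IDR peaks.

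The other eIF3 sites were weaker. The site of eif-3.C ranked 262 (signal 147, summit 270 bp upstream), that of eif-3.D 465 (signal 93.9, 266 bp upstream) and that of eif-3.E 690 (signal 74.5, 252 bp upstream). The eif-3.D summit was nearer the start of R08D7.4, at 48 bp. That of eif-3.E shared its window with B0511.17 and had no summit within 100 bp in replicate 1. With eif-3.B, the eIF3 summits lay between 241 and 270 bp upstream of a start, a spacing that was not tested. The median over all protein-coding genes with a site was -225 bp. In all, 4 of the 11 eif-3 genes had a site. Of the remaining 7, eif-3.H, eif-3.K and eif-3.J had pooled-list summits at ranks 2118, 2218 and 2243, eif-3.G and eif-3.F at 14692 and 22282, and eif-3.I and eif-3.L had none in the window. Genes for subunits of this complex therefore ran from rank 18 to no listed summit.

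The peak of eif-4A3 on chromosome I ranked 145 with a signal of 287 (145 in replicate 1, 125 in replicate 2). Despite its name, eif-4A3 encodes a helicase known as a core part of the exon junction complex left on mRNA by splicing. The summit lay 480 bp upstream of eif-4A3 but 21 bp inside the start of vps-20, which runs the other way and encodes a subunit of ESCRT-III, a membrane-cutting complex. A like arrangement held for eif-1, a factor for start codon choice. Its peak ranked 285 (signal 134, with 66.1 in replicate 1 and 61.4 in replicate 2), and the summit lay 419 bp upstream of eif-1 and 1 bp from the start of vps-24, another ESCRT-III gene. The start of pigb-1 was in the same window at 922 bp.

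eIF2 carries the initiator tRNA, and eIF2B reloads it with GTP. Of their 8 genes here, eif-2Bbeta (rank 495, signal 90.2), eif-2gamma (692, 74.4) and eif-2Bdelta (695, 74.3) had sites, all outside the 382 strongest IDR peaks. Replicates supported these unevenly. The eif-2Bbeta peak had a signal of 53.9 in replicate 2 (rank 452) and no summit within 100 bp in replicate 1. For eif-2Bdelta, whose summit was 1 bp from the start, the signal was 14.1 in replicate 1 (rank 10759) and 40.8 in replicate 2 (rank 798). The peak of eif-2gamma ranked 1506 and 1369 in replicates 1 and 2, below the 765 strongest of both. In the pooled list eif-2beta was at rank 1641, eif-2Balpha at 4397, eif-2Bgamma at 6849 and eif-2Bepsilon at 25640, and eif-2alpha, the subunit phosphorylated under stress, had no summit in the window. Among the other initiation factor genes, eif-1.A was at rank 3369 and eif-2D at 20363, and eif-2A had no summit in the window.

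**Figure D1:**
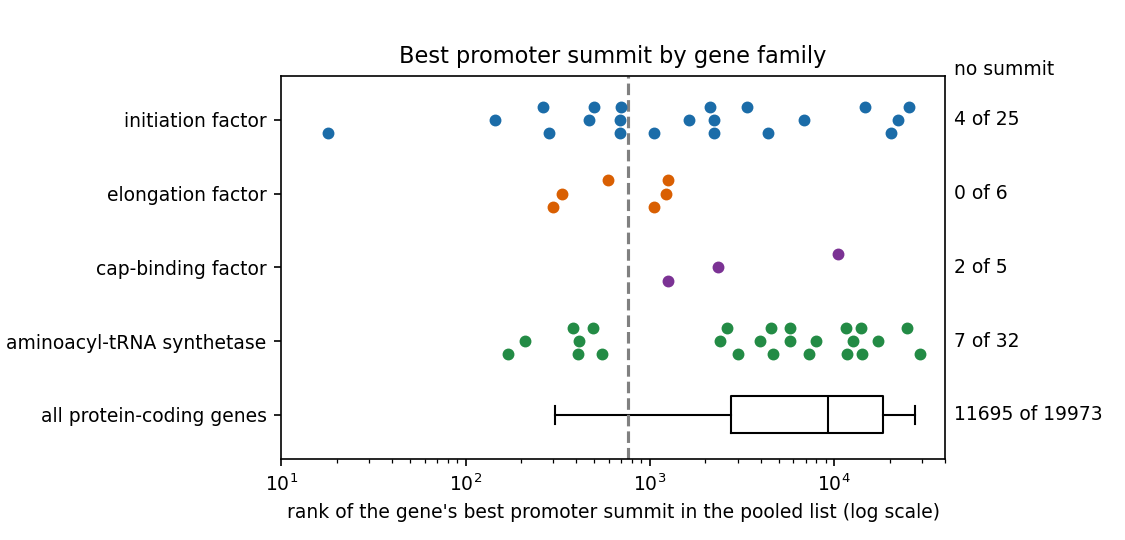
Rank of the best pooled-list summit in the promoter window of each gene (points, log scale) by family, with a box for all protein-coding genes (median, quartiles, and whiskers at the 5th and 95th percentiles), and at the right the number of genes with no summit in the window. The dashed line marks rank 765, the end of the IDR list. All 6 elongation factor genes lie at rank 1258 or stronger, and no synthetase gene lies between ranks 549 and 2417.

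All 6 elongation factor genes had a pooled-list summit at rank 1258 or stronger. Sites were found at 3 of them, and the other 3 followed the end of the IDR list at ranks 1050, 1229 and 1258. Within the top 1530 of the pooled list, double the length of the IDR list, summits reached 6 of 6 elongation factor genes, 24 of all 68 genes of the set (35.3%) and 7.06% of all protein-coding genes. The family is small, and that limit was chosen with the ranks known.

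eef-1A.1 and eef-1A.2 encode the closely related forms of eEF1A, which delivers charged tRNA to the ribosome. The eef-1A.1 peak on chromosome III ranked 300 (signal 129, with 57.6 in replicate 1 and 64.0 in replicate 2), its summit 399 bp upstream of eef-1A.1 and 142 bp upstream of rfc-4, which encodes a clamp loader subunit for DNA replication. That window also held the start of the microRNA gene cel-mir-5549. The eef-1A.2 peak ranked 332 (signal 119, with 44.5 in replicate 1 and 67.9 in replicate 2) and lay 370 bp upstream with no other protein-coding start in reach, and it was the 1 site of the set on chromosome X, where 1.17% of protein-coding genes had one. Ranks in the replicates were 300 and 342 for eef-1A.1 and 422 and 313 for eef-1A.2, so the order of the pair turned round between replicates. eef-2, for the factor that moves the ribosome by 1 codon, had a site at rank 595 (signal 80.6, with 29.5 in replicate 1 and 56.5 in replicate 2), 36 bp upstream of its start and 229 bp upstream of clsp-1, the claspin gene. The subunits of the eEF1B exchange complex came next. eef-1B.1, eef-1G and eef-1B.2 had pooled signals of 62.6, 59.0 and 58.5, below the weakest IDR peak at 71.4. In replicate 2 the ranks of these summits were 3293, 3402 and 1428, and in replicate 1 they were 1254, 802 and 1362.

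No cap-binding factor gene had a site. The ife- genes encode the eIF4E family that binds the mRNA cap. Their 0 of 5 allows a share of up to 52.2% by the exact interval, beside 4.46% of all protein-coding genes. With so few genes, the count does not set this family apart from all genes. ife-3 was nearest, at pooled rank 1263 with a signal of 58.4. Its summit ranked 1158 in replicate 2 but 11210 in replicate 1. ife-2 and ife-4 were at pooled ranks 2333 and 10491, and ife-1 and ife-5 had no summit in the window.

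**Figure D2:**
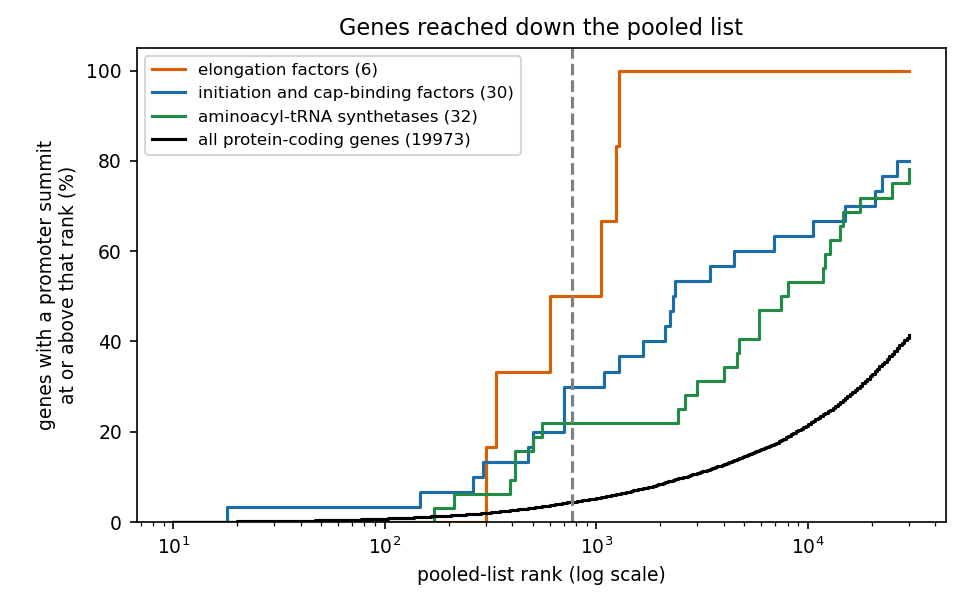
Share of genes (percent) with a promoter summit at or above each pooled-list rank (log scale), for elongation factors, initiation with cap-binding factors, synthetases and all protein-coding genes. At rank 765 (dashed line) the synthetase curve stands at 21.9% and that of all genes at 4.46%, and the synthetase curve stays level from rank 549 to rank 2417.

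The strongest synthetase site belonged to kars-1, the gene for lysyl-tRNA synthetase. Its peak on chromosome II, at 7072558 to 7072987, ranked 169 with a signal of 233, and the summit lay 358 bp upstream with no other protein-coding start in the window. Replicate 2 gave it the stronger place, with a signal of 152 and rank 139, against 67.7 and rank 255 in replicate 1. Next came yars-2, for a tyrosyl-tRNA synthetase, at rank 211 (signal 182, with 95.9 in replicate 1 and 70.4 in replicate 2), its summit 30 bp upstream of a start on chromosome IV. The other tyrosyl gene, yars-1, was at pooled rank 29299, close to the end of that list.

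The remaining synthetase sites were at ears-2 (glutamyl, rank 384, signal 107), aars-1 (alanyl, 407, 103), mars-1 (methionyl, 413, 103), nars-1 (asparaginyl, 492, 90.4) and rars-1 (arginyl, 549, 85.6). After eif-2Bdelta, the replicate ranks differed most at mars-1 and aars-1, in opposite senses. The aars-1 peak had a signal of 66.2 and rank 260 in replicate 1, and of 36.0 and rank 1128 in replicate 2. For mars-1 the values were 26.7 and rank 1190 in replicate 1, and 79.6 and rank 262 in replicate 2. The site of rars-1 was the most distant of the set, 910 bp upstream of it and 79 bp upstream of rpb-8, an RNA polymerase subunit gene, and windows of 500 bp upstream left it out.

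By the worm naming rule most symbols numbered 1 are cytosolic or shared enzymes and most numbered 2 mitochondrial ones. The compartment of each enzyme was not checked, so the counts here are by symbol alone and do not compare cytosolic with mitochondrial enzymes. Sites were at 5 of 20 genes numbered 1 and at 2 of 11 numbered 2, ears-2 and yars-2. A pooled-list summit of any rank was in the window of 18 of the 20 and 6 of the 11, against 41.4% of all protein-coding genes. No test was made between these groups. Over the set, 55 of 68 genes had one (80.9%), with a median best rank of 2243, against 9250.5 for all protein-coding genes with a pooled-list summit. The 13 genes without one were 4 initiation factor, 2 cap-binding factor and 7 synthetase genes. After the IDR list the next synthetase gene was cars-1, at rank 2417, and the 18 synthetase genes with a pooled-list summit only ran from there to yars-1. Of the genes without a site, the 10 with the strongest pooled-list summit were eef-1B.1, eif-6, eef-1G, eef-1B.2, ife-3, eif-2beta, eif-3.H, eif-3.K, eif-3.J and ife-2. Here eif-6, a factor that keeps the ribosomal subunits apart, stood at pooled rank 1058, with rank 490 in replicate 1 and rank 20777 in replicate 2.

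**Figure D3:**
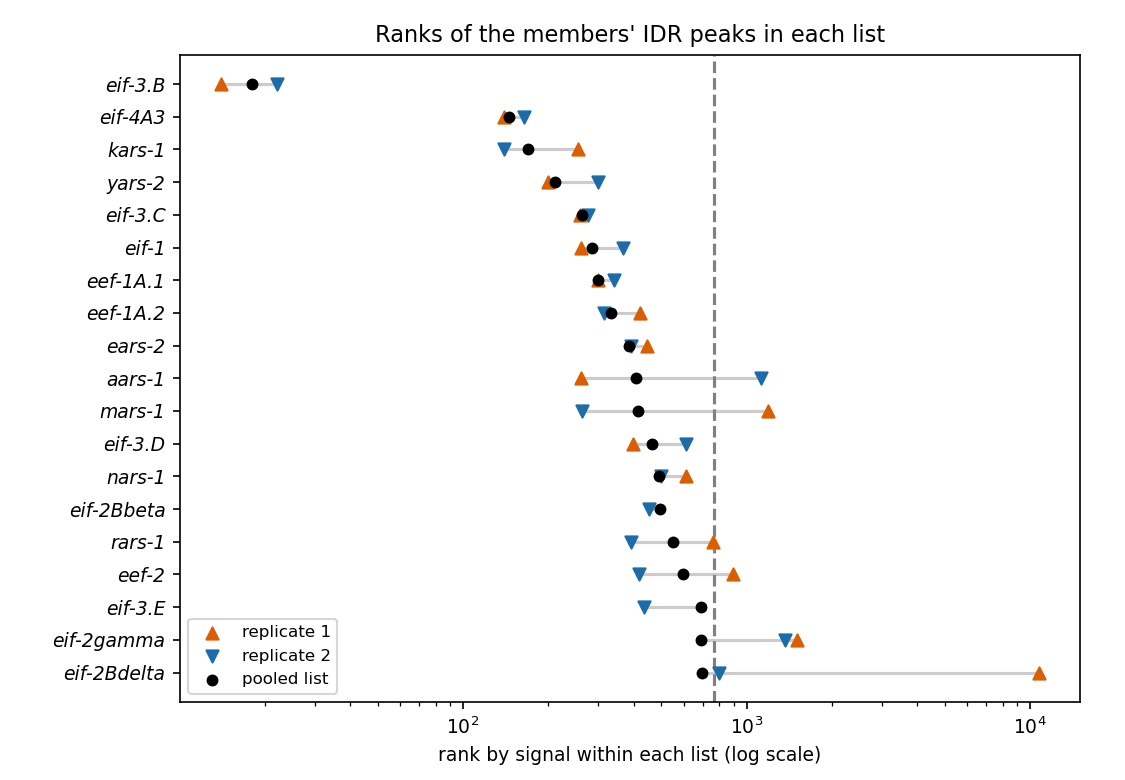
Rank by signal (log scale) of each of the 19 sites in the pooled list (circles), replicate 1 (upward triangles) and replicate 2 (downward triangles), ordered by pooled rank. The dashed line marks rank 765. No triangle for replicate 1 is drawn at eif-2Bbeta and eif-3.E, which had no summit within 100 bp there, and aars-1, mars-1 and eif-2Bdelta show the widest spread.

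Both replicates placed 12 of the 19 sites among their own 765 strongest peaks (63.2%), close to the 65.5% of all IDR peaks. Singly, 13 were in the top 765 of replicate 1 and 16 in that of replicate 2, and 2, eif-2gamma and eif-2Bdelta, were in neither. In the full lists 17 of the 19 had a summit within 100 bp in replicate 1 and 19 in replicate 2, and 93.7% of all IDR peaks had one in both. The sites of eif-3.B, eif-4A3 and kars-1, and 5 others within the 382 strongest IDR peaks, were among the top 765 of both replicates. Of the 19 sites, 8 were among the 382 strongest IDR peaks and 11 among the 383 others, with a median rank of 407. The median rank was 329 for all 891 protein-coding genes with a site. Of all protein-coding genes, 4.46% had a site and 2.52% had one among the 382 strongest. The difference from the set was not tested. The IDR list was drawn from both replicates, so the agreement between replicates is not an independent check.

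At 12 of the 19 sites the summit also lay in the window of another protein-coding gene, so that a site there cannot be given to 1 gene. Of the IDR peaks in any protein-coding window, 47.2% did. A different gene's start was nearer than that of the set at 6, the sites of eif-4A3 (vps-20), eif-1 (vps-24), eef-1A.1 (rfc-4), eif-3.D (R08D7.4), eif-2Bbeta (Y47H9C.8) and rars-1 (rpb-8). Given to the nearest start alone, 13 genes of the set had a site and 2.98% of all protein-coding genes. Of the 13, 7 were factor and 6 synthetase genes. The other shared windows were ears-2 with uncp-18, aars-1 with rga-1, mars-1 with F58B3.6, nars-1 with nduf-6, which encodes a subunit of respiratory complex I, eef-2 with clsp-1, and eif-3.E with B0511.17. For ears-2 and uncp-18 the summit was 44 and 48 bp upstream, and for nars-1 and nduf-6 328 and 350 bp, so distance does not separate those pairs. The 7 genes alone in their window were eif-3.B, kars-1, yars-2, eif-3.C, eef-1A.2, eif-2gamma and eif-2Bdelta.

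**Figure D4:**
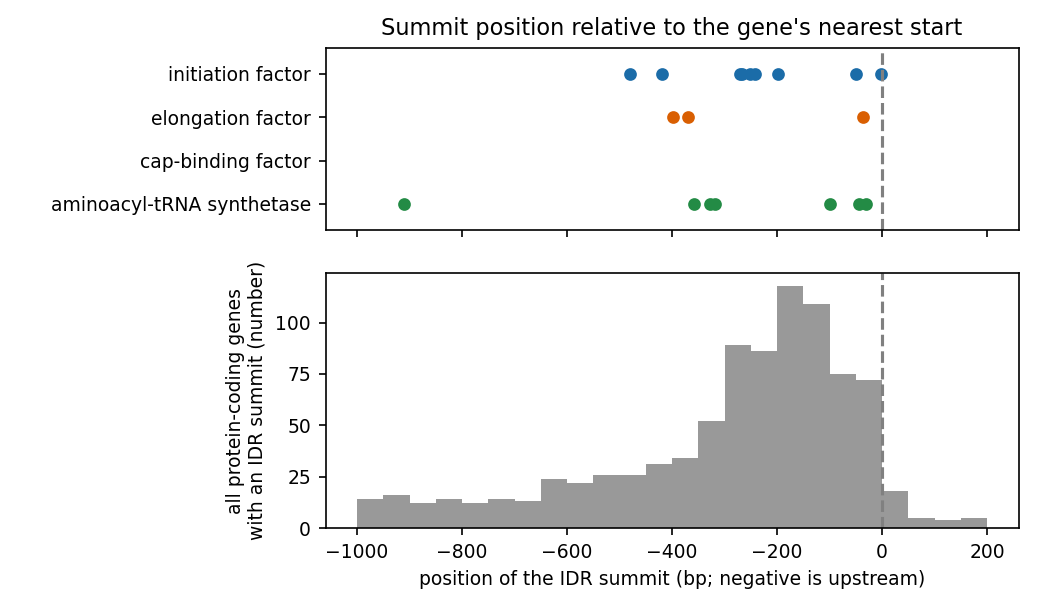
Position of the IDR summit relative to the nearest start of its gene (bp, negative upstream), for the 19 genes of the set by family (top, points) and for all 891 protein-coding genes with an IDR summit (bottom, numbers per 50 bp). All 19 points lie upstream, from 910 to 1 bp before the nearest start, and the cap-binding row is empty.

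All 19 summits lay upstream of the nearest start of their gene, at a median of -266 bp (quartiles -364 and -74.5 bp). That of aars-1, however, lay inside the annotated gene, downstream of its outermost start by more than the window allows. With the outermost start of each gene alone, 18 genes of the set had a site, 6 of them synthetase genes, beside 4.24% of all protein-coding genes. For all 891 protein-coding genes with a site 96.4% were upstream, at a median of -225 bp (quartiles -403 and -124.5 bp). Trans-splicing removes the first bases of many worm transcripts, and annotated starts may therefore be off from true ones. Sites were at 7 of 21 genes of the set on chromosome I, 4 of 15 on II, 3 of 11 on III, 3 of 10 on IV, 1 of 8 on V and 1 of 3 on X, where all protein-coding genes had one at 6.39%, 5.05%, 7.99%, 4.72%, 2.70% and 1.17% in the same order.

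Of 28 listed genes of translation that the symbol rule leaves out, the annotation holds 25, and 6 of these had a site (24.0%, exact 95% interval 9.36 to 45.1%). No test was made against the set. The leading sites, at gfm-1 and tufm-2, were stronger than any of the set but that of eif-3.B. gfm-1, for mitochondrial elongation factor G, had a site at rank 40 (signal 899, ranks 38 and 43 in replicates 1 and 2), and tufm-2, for a mitochondrial elongation factor Tu, at rank 88 (signal 520, ranks 88 and 90). erfa-1, for the release factor that ends translation, followed at rank 177 (signal 217) and drr-2, for a factor like eIF4H, at rank 419 (signal 101). The other 2 ranked 469 and 697.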

How the data were processed

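ChIP-seq peaks of 2 replicates (1 group) were read from 4 lists in build ce11. Per the deposited file descriptions, each replicate list (23796 and 30000 peaks) and the pooled list hold peaks with background, made against 1 control shared by the replicates, and the IDR list was derived from them. The control was not analysed here. The authors deposited a signal per peak (column 7), used only to rank and describe peaks within a list. The sources used here do not give the aligner, the caller or any threshold. Chromosome lengths fit the WBcel235 reference, and gene models are of Ensembl release 115. The ce10 lists were not used. Coordinates are 1-based.

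Every start whose window held a summit was counted. Each gene took its strongest summit, and replicate ranks come from the nearest summit within 100 bp. Python 3.11.15, pandas 2.3.3 and scipy 1.17.1 were used, and the window search was tested on simulated summits. No test between conditions was possible. The genes, lists and 6-mers were chosen with earlier results of these data known. Named are all genes of the set with a site and those sharing its peak, the 10 strongest without one, and up to 4 genes of other lists. The other 3 listed translation genes were not matched by symbol.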

Additional observations from a re-analysis of the deposited data

How the results depend on the processing

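Of 43 values recomputed, 33 stayed within 1.5 times the reported count or within the spread between replicates, 10 moved and 0 reversed. With the 382 strongest IDR peaks alone, fewer by construction, counts fell: 8 genes of the set at 8 peaks (2.52% of all protein-coding genes), with 6 factor and 2 synthetase genes, and a median position of -364 bp. Each summit given to its nearest start alone left 7 factor genes, 6 synthetase genes and a median position of -241 bp. Within 100 bp of the summit, 14 of the 19 sites held a listed 6-mer (73.7%, against 49.0% of all IDR peaks). Of the listed 6-mers, only ACGCGC rose between 50 and 100 bp, from 2 to 9 of the 19 sites, and the cause was not tested. From the 765 strongest peaks of 1 replicate, 15 to 17 genes of the set had a site (4.42% and 4.35% of all protein-coding genes), 9 to 11 of them factor genes and 6 synthetase genes in each case, with median positions of -320 to -292 bp. Of the 19 genes, 14 were so reached in replicate 1, 16 in replicate 2 and 13 in both. Windows of 500 and 2000 bp upstream gave 18 and 20 genes of the set (3.65% and 5.41% of all protein-coding genes). The outermost start alone gave 18 (4.24%). No paired analysis was possible because both samples form 1 group. Read depth is unknown, so what it limits could not be measured.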

Other observations

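Genes of the set differed in what lies upstream of them. The nearest upstream protein-coding neighbour ran the other way (a divergent pair) at 12 of the 19 genes with a site (63.2%), at 20 of the 36 with a pooled-list summit only (55.6%) and at 4 of the 13 with no pooled-list summit in the window (30.8%). The median gap to that neighbour was 417, 633 and 132 bp in the same order. A neighbour that overlaps the gene was counted, with a negative gap. The lowest gaps were 65, -6715 and -296 bp in the same order. Over all protein-coding genes the divergent share was 46.2% and the median gap 937 bp. At those with a site these were 71.4% and 487 bp, and at those with no pooled-list summit 43.0% and 993 bp. The 13 genes with no pooled-list summit include eif-2alpha, 132 bp behind phb-1 on the same strand, lars-2, 99 bp behind ZK524.4, and rars-2, 120 bp behind C29H12.2. Those 3 were named after their values were seen. No test was made of these counts.

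The 4-letter core TAAT, which many homeodomains bind, was within 50 bp of the summit on either strand at 15 of the 19 sites (78.9%), at 386 of the 765 IDR peaks (50.5%) and at 67.6% of the other pooled-list peaks. The order depends on the width. Within 25 bp TAAT was at 4 of the 19 sites (21.1%), at 185 of the 765 IDR peaks (24.2%) and at 44.6% of the other pooled-list peaks, and within 100 bp at 19 of 19, 80.9% and 87.9%. The differences were not tested.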
